A study of Bos taurus with 9 samples.

Results

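The heat shock factors *HSF1* and *HSF2* and 8 genes grouped with the co-chaperones of HSP90 (*AHSA1*, *STIP1*, *FKBP4*, *PTGES3*, *CDC37*, *BAG3*, *CHORDC1* and *ST13*) were followed in the liver of dairy cows. They were taken by their gene symbols from a set proposed with earlier results of these data known, and all 10 were found among the 28786 genes of the read count file. The 9 animals were lactating Holstein cows. The groups were 3 conditions, with 3 cows in each. Cows of the heat stress (HS) group were kept above thermoneutral temperature by day and by night, and hotter by day than by night. Cows of the pair-fed (PF) group stayed at thermoneutrality and received only as much feed as the HS cows ate, and cows of the thermoneutral (TN) group stayed at the same climate without that restriction. Each cow gave 1 liver biopsy while the treatment was still running, so the values describe cows that had been in their condition for days and not the first hours of heat. No genotype or allele is named for these cows, and no drug treatment other than the lidocaine used as local anesthetic for the biopsy. Their average days in milk differed between the groups, lowest in TN and highest in PF.

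HSF1 is the transcription factor that switches on chaperone genes when proteins unfold, and HSF2 is a related factor that can join HSF1 in trimers on DNA. HSP90 is a chaperone that completes the folding of kinases, steroid hormone receptors and many other client proteins, and it also holds HSF1 inactive in unstressed cells. Co-chaperones set the steps of its cycle. STIP1 (HOP) and ST13 (HIP) link it to the HSP70 system, CDC37 brings kinases, AHSA1 (AHA1) stimulates its ATPase, PTGES3 (p23) stabilizes the closed form, and FKBP4 (FKBP52) acts on steroid receptor complexes. CHORDC1 (morgana) is a further HSP90 partner, while BAG3 acts on HSP70, as a nucleotide exchange factor that works in selective autophagy. Several of these genes, *BAG3* and *AHSA1* among them, are known targets of HSF1.

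The libraries held 16874444 to 22557047 counts, and all 10 genes had at least 172 counts in every library. Expression is given as CPM, the counts of a gene scaled by library size, after TMM normalization, which depends on transcript length and is therefore compared between groups of cows and not between genes. The labelled tissue was checked with 8 hepatocyte markers, which were all detected. Their summed level was 17288 CPM in TN replicate 1 and 59965 to 129091 CPM in the other 8 libraries, so this TN library stood apart from the rest. The summed level of 5 macrophage markers was 557 to 1187 CPM in TN, 537 to 749 CPM in PF and 827 to 1354 CPM in HS cows, and that of 6 leukocyte markers was 91.4 to 111 CPM, 67.6 to 92.1 CPM and 74.3 to 86.8 CPM. That of 4 erythroid markers was 3.40 to 22.4 CPM in TN, 0 to 2.29 CPM in PF and 0.336 to 1.33 CPM in HS cows, higher in every TN cow than in the other 6. Of 4 muscle markers, *ACTA1* and *MYH7* had 0 counts in every library. The 13 mitochondrial protein-coding genes held 13.6% to 22.2% of counts in TN, 6.90% to 7.79% in PF and 3.84% to 5.68% in HS cows. The part of these differences in the results was not tested, and in such bulk tissue fewer cells of a type and less RNA per cell cannot be told apart. Values without TN replicate 1 are therefore given beside the main ones.

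The co-chaperones *AHSA1*, *STIP1* and *FKBP4* had their highest levels in the HS cows, with every HS cow above all 6 TN and PF cows. *AHSA1* had 63.0, 73.1 and 86.1 CPM in the HS cows, 27.8, 59.6 and 45.9 CPM in the PF cows and 28.2, 43.1 and 39.4 CPM in the TN cows. *STIP1* had 60.1, 71.2 and 81.1 CPM in HS, 25.9, 53.5 and 40.9 CPM in PF and 33.7, 46.3 and 40.3 CPM in TN cows. *FKBP4* had 260.0, 292 and 443 CPM in HS, 169.6, 238 and 181 CPM in PF and 85.3, 163 and 151 CPM in TN cows. For *AHSA1* and *STIP1* the PF and TN cows overlapped, whereas for *FKBP4* every PF cow lay above every TN cow. *CHORDC1* was the fourth gene with no overlap between the HS cows and the other 6, at 43.5, 33.97 and 29.5 CPM in HS, 26.2, 28.0 and 20.1 CPM in PF and 22.7, 27.3 and 24.9 CPM in TN cows.

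**Figure D1:**
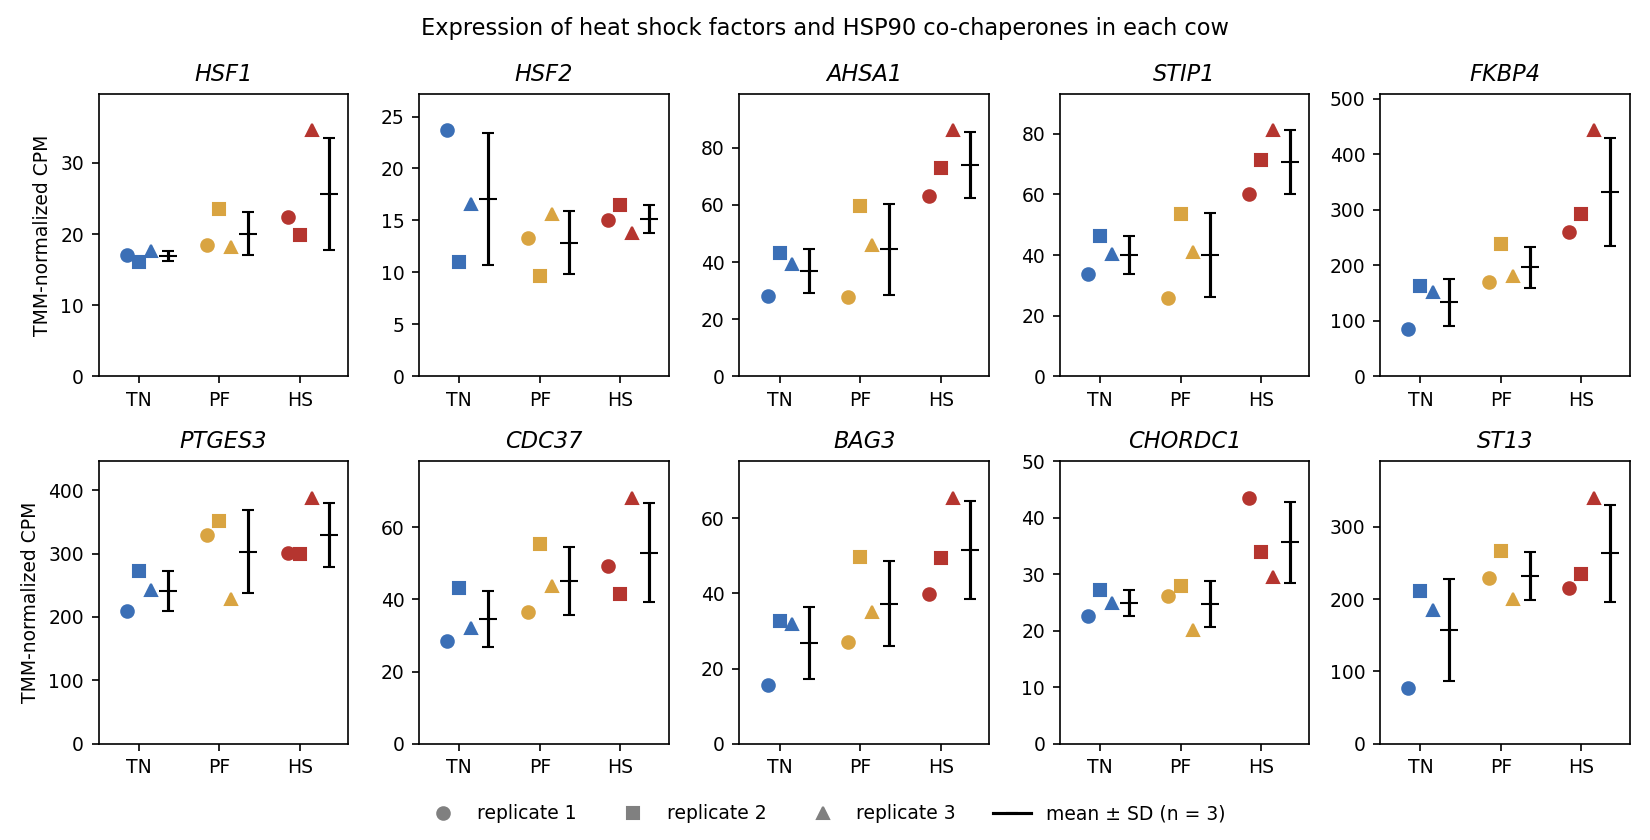
TMM-normalized CPM (vertical axes, each from 0) of the 10 genes in the 3 TN, 3 PF and 3 HS cows. Each point is 1 cow, its shape gives the replicate number, and the black bar is the mean ± SD of n = 3; the HS points of *AHSA1*, *STIP1*, *FKBP4* and *CHORDC1* lie above all 6 other points, and the *HSF2* groups overlap.

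*BAG3* had 39.9, 49.3 and 65.5 CPM in HS, 27.2, 49.6 and 35.1 CPM in PF and 15.7, 32.7 and 31.8 CPM in TN cows. All HS cows lay above all TN cows, while PF replicate 2 lay within the HS range. *ST13* had 216, 236 and 340 CPM in HS, 229, 267 and 200.1 CPM in PF and 77.2, 211 and 185 CPM in TN cows. The lowest HS cow lay just above the highest TN cow, and TN replicate 1 lay far below all other cows. *PTGES3* had 301, 299 and 388 CPM in HS, 330, 352 and 228 CPM in PF and 209, 272 and 243 CPM in TN cows, with a PF range that overlapped both other groups. *CDC37* had 49.3, 41.4 and 68.2 CPM in HS, 36.5, 55.3 and 43.7 CPM in PF and 28.4, 43.1 and 32.1 CPM in TN cows, and its groups overlapped in every comparison.

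The transcription factor *HSF1* had 22.3, 19.8 and 34.6 CPM in HS, 18.4, 23.6 and 18.1 CPM in PF and 17.1, 16.1 and 17.6 CPM in TN cows. The 3 TN cows lay within a narrow band below all other cows, and the HS mean was carried by HS replicate 3. *HSF2* had 15.03, 16.5 and 13.8 CPM in HS, 13.3, 9.61 and 15.6 CPM in PF and 23.7, 10.99 and 16.6 CPM in TN cows. Its groups overlapped in every comparison, and its highest level was in TN replicate 1. In the 9 libraries together, HS replicate 3 was the highest for 8 of the 10 genes and TN replicate 1 the lowest for 5. Within the PF group, replicate 2 was the highest for 9 of the 10.

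The HS and TN groups differ in climate and in feed intake. In the edgeR quasi-likelihood test of these 6 libraries, 0 of the 10 genes was a differentially expressed gene (DEG; FDR under 0.1 and fold change over 1.5), beside 0.0892% of the 14582 genes tested. Their FDR (Benjamini-Hochberg over all genes tested) ranged from 0.290 for *AHSA1* to 0.821 for *HSF2*. At an unadjusted p under 0.05, 7 of the 10 were higher in HS cows, as were 4.13% of all genes tested, and 0 were lower, as were 5.23%. The 7 were *HSF1*, *AHSA1*, *STIP1*, *FKBP4*, *CDC37*, *BAG3* and *CHORDC1*. The mean was higher in HS cows for 9 of 10 genes (49.3% of all genes), the fold change was over 1.5 with a higher HS mean for 6 (9.89%), and every HS cow lay above every TN cow for 8 (8.37%). The median log2 fold change of the 10 was 0.67, and that of all genes tested was -0.0082.

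*FKBP4* had the largest difference of the 10, averaging 332 ± 97.7 CPM in the HS group against 133 ± 41.9 CPM in the TN group (SD, n = 3 throughout). Its log2 fold change was 1.31 (SE 0.35, 95% interval 0.51 to 2.10; edgeR, FDR = 0.374). *AHSA1* averaged 74.1 ± 11.6 CPM against 36.9 ± 7.74 CPM, which gave a log2 fold change of 0.99 (SE 0.24, 95% interval 0.46 to 1.53; edgeR, FDR = 0.290). For *STIP1* the log2 fold change was 0.81 (SE 0.22; edgeR, FDR = 0.381), and for *BAG3* it was 0.94 (SE 0.31; edgeR, FDR = 0.454). The intervals of these 4 genes lay above 0 before adjustment, and none of the 4 passed the FDR threshold. In the same comparison DESeq2 called *FKBP4* (log2 fold change 1.34, FDR = 0.00784) and *AHSA1* (1.02, FDR = 0.0358) among 270 genes, 1.32% of the 20466 genes for which it gave a test. *STIP1* was next among the 10, at an FDR of 0.120 in DESeq2.

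*HSF1* averaged 25.6 ± 7.90 CPM in the HS group against 16.93 ± 0.747 CPM in the TN group, which gave a log2 fold change of 0.58 (SE 0.25; edgeR, FDR = 0.520). *HSF2* averaged 15.1 ± 1.35 CPM against 17.1 ± 6.35 CPM, which gave a log2 fold change of -0.20 (SE 0.29; edgeR, FDR = 0.821), with a 95% interval of -0.86 to 0.45 that leaves room for either direction. *CDC37*, the adaptor of kinases, differed by 0.60 (SE 0.26) and *CHORDC1* by 0.50 (SE 0.22) on the log2 scale. For *ST13* the log2 fold change was 0.73 (SE 0.39) and for *PTGES3* it was 0.43 (SE 0.29), and the 95% intervals of both included 0.

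**Figure D2:**
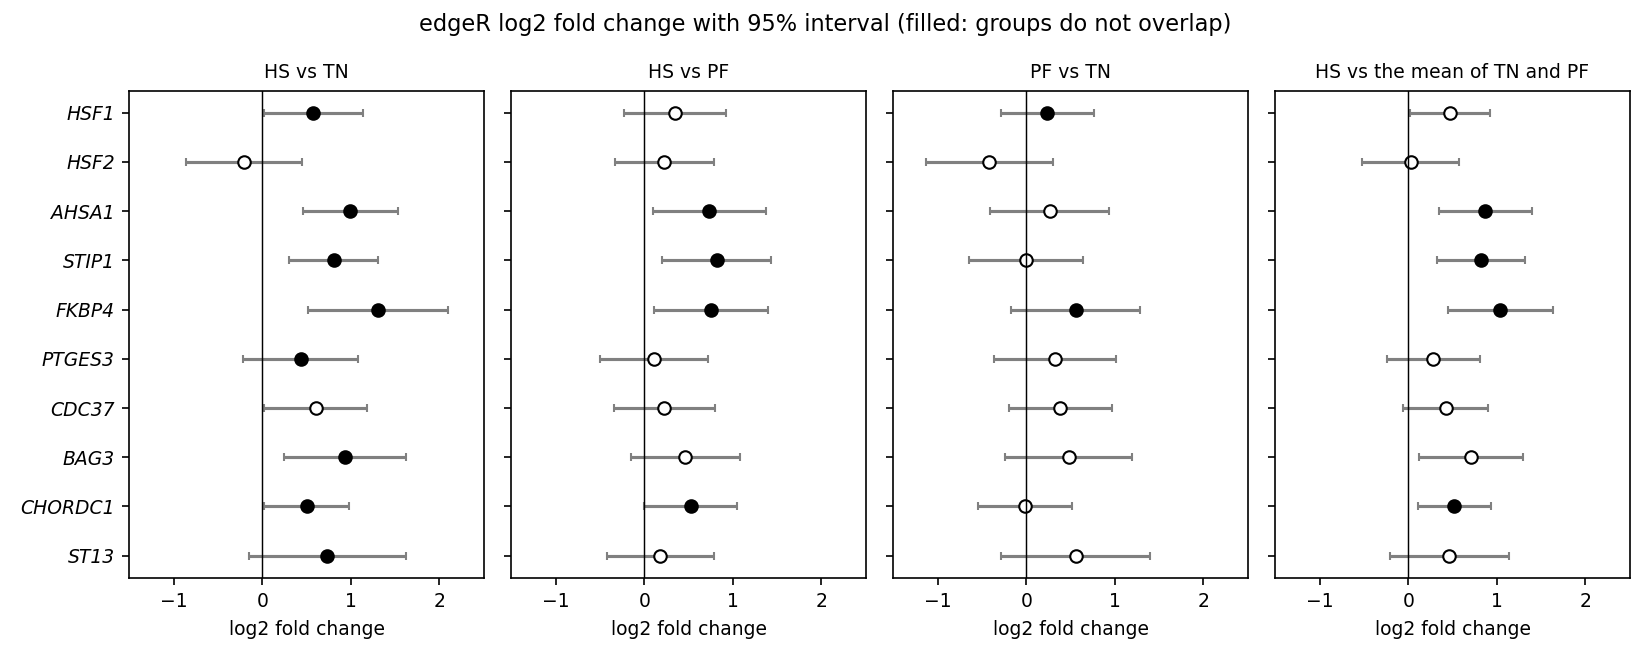
Log2 fold changes from edgeR (horizontal axis) of the 10 genes in 4 comparisons, with 95% intervals as grey bars and filled points where every cow of the first group lies above every cow of the other. *FKBP4*, *AHSA1*, *STIP1* and, narrowly, *CHORDC1* lie above 0 with their intervals in the 3 comparisons that contain the HS group. The lower end for *CHORDC1* is 0.00084 against PF. All intervals of PF against TN include 0.

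Part of the HS and TN comparison rested on single cows. Without TN replicate 1, the number of genes higher in HS cows at an unadjusted p under 0.05 was 4 of 10 (*AHSA1*, *STIP1*, *FKBP4* and *BAG3*) beside 3.19% of all genes, and the median log2 fold change was 0.54. It was also 4 without TN replicate 3 (3.28% of all genes) and 4 without HS replicate 3 (2.53%). Without TN replicate 1, every HS cow lay above every remaining TN cow for 8 of the 10 genes, beside 11.6% of all genes. The log2 fold change of *FKBP4* was 1.08 without TN replicate 1 and 1.04 without HS replicate 3, and that of *ST13* was 0.41 without TN replicate 1. *HSF2*, the gene that was lower in HS cows, was at 0.13 without TN replicate 1, and *HSF1* was at 0.30 (edgeR, FDR = 0.920) without HS replicate 3. *AHSA1*, *STIP1* and *FKBP4* had an unadjusted p under 0.05 with each of the 6 cows left out in turn, *BAG3* in 5 of 6 fits (all but the one without HS replicate 3), *HSF1* and *CDC37* in 2, and *CHORDC1* in 1.

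**Figure D3:**
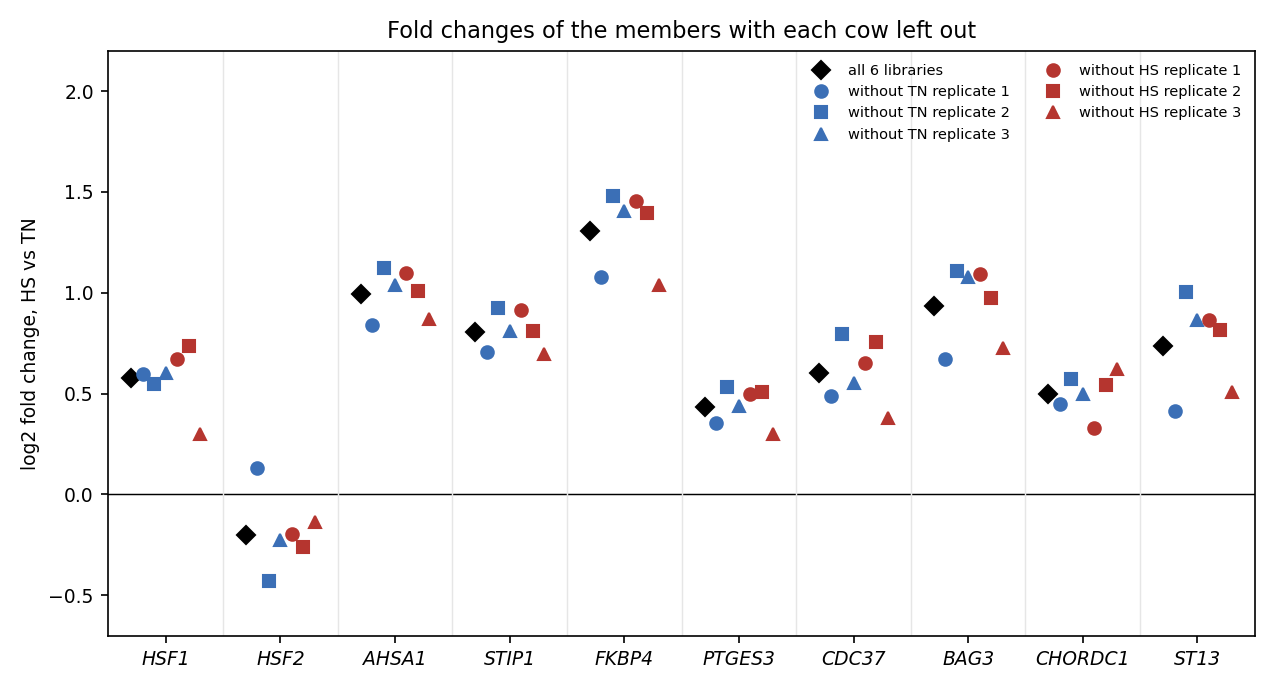
Log2 fold changes of HS against TN (vertical axis) for the 10 genes with all 6 libraries (black diamonds) and with 1 cow left out (blue, a TN cow; red, an HS cow; the shape gives the replicate). *AHSA1* stays between 0.84 and 1.12, *FKBP4* between 1.04 and 1.48, and *HSF2* lies on both sides of 0.

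The comparison of HS with PF cows asks about heat at a matched feed intake. Here 0 of the 10 genes was a DEG in edgeR, beside 0.0276% of 14510 genes, and DESeq2 called 0 of them beside 0.596% of all genes. The mean was higher in HS cows for all 10, as it was for 50.9% of all genes. An unadjusted p under 0.05 with a higher HS mean was found for 4 (*AHSA1*, *STIP1*, *FKBP4* and *CHORDC1*), beside 3.07% of all genes, and in these same 4 genes every HS cow lay above every PF cow, beside 5.95%. The median log2 fold change was 0.40, and that of all genes was 0.0069. *STIP1* had the largest difference, averaging 70.8 ± 10.5 CPM in the HS group against 40.1 ± 13.8 CPM in the PF group, and its log2 fold change was 0.82 (SE 0.28; edgeR, FDR = 0.700). *FKBP4* differed by 0.75 (SE 0.29; edgeR, FDR = 0.821) and *AHSA1* by 0.73 (SE 0.29; edgeR, FDR = 0.834).

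The other 6 genes had smaller differences between HS and PF cows. The log2 fold change of *BAG3* was 0.46 (SE 0.28), that of *HSF1* was 0.35 (SE 0.26), and those of *CDC37*, *HSF2*, *ST13* and *PTGES3* were 0.22, 0.23, 0.18 and 0.11. For all 6 the 95% interval included 0. The number of genes with an unadjusted p under 0.05 was 1 of 10 without PF replicate 1 (beside 2.63% of all genes) and without PF replicate 3 (4.54%). It was 2 without HS replicate 2 (2.32%) and without HS replicate 3 (2.56%), and 5 without PF replicate 2 (3.45%). *STIP1* kept such a p with each of the 6 cows left out, while *FKBP4* had it in 3 of 6 fits and *AHSA1* and *CHORDC1* in 2.

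The comparison of PF with TN cows asks about the smaller feed intake alone. Of the 10 genes, 0 were DEGs in edgeR and 0 had an unadjusted p under 0.05, and DESeq2 called 0 of them. Over the 14580 genes that edgeR tested, it called 0.0% (0 genes, with 1003 at an unadjusted p under 0.05). DESeq2 called 91 of the 20255 genes for which it gave a test. The mean was higher in PF cows for 7 of the 10, beside 48.8% of all genes, and every PF cow lay above every TN cow for *HSF1* and *FKBP4*, beside 6.81%. *FKBP4* averaged 196 ± 36.5 CPM in the PF group against 133 ± 41.9 CPM in the TN group, which gave a log2 fold change of 0.56 (SE 0.33, 95% interval -0.17 to 1.29; edgeR, FDR = 0.713). *STIP1* had equal means in both groups, 40.1 ± 13.8 CPM and 40.1 ± 6.29 CPM, with a 95% interval of -0.64 to 0.64 for its log2 fold change. *CHORDC1* was at 24.8 ± 4.11 CPM and 25.0 ± 2.31 CPM, with an interval of -0.54 to 0.51, so neither result shows that the levels were the same. *AHSA1* differed by 0.27 (SE 0.31) and *BAG3* by 0.48 (SE 0.33) on the log2 scale. Without TN replicate 1 the difference of *FKBP4* was 0.33 and that of *BAG3* was 0.21. Every PF cow then lay above every remaining TN cow for *HSF1* and *FKBP4*, beside 9.57% of all genes.

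The HS group was then set against the mean of both groups at thermoneutrality, TN and PF, in 1 edgeR fit of all 9 libraries. In this contrast 0 of the 10 genes was a DEG, beside 0.159% of 15073 genes. An unadjusted p under 0.05 with a higher HS mean was found for 6 (*HSF1*, *AHSA1*, *STIP1*, *FKBP4*, *BAG3* and *CHORDC1*), beside 3.51% of all genes. The mean was higher in HS for 10 of 10 (51.9% of all genes), and every HS cow lay above the 6 others for 4 (1.85%). *FKBP4* was higher by 1.04 (SE 0.27; edgeR, FDR = 0.333), *AHSA1* by 0.87 (SE 0.24; edgeR, FDR = 0.384) and *STIP1* by 0.82 (SE 0.23; edgeR, FDR = 0.391) on the log2 scale. DESeq2 called *FKBP4* alone of the 10 (log2 fold change 1.04, FDR = 0.0241), beside 0.734% of all genes. These 3 genes had an unadjusted p under 0.05 in each of the 9 fits with 1 cow left out. *HSF1* had it in only 3 of the 9 fits, and its log2 fold change was 0.20 without HS replicate 3. *CHORDC1* lost it without HS replicate 1 and *BAG3* without HS replicate 3. Without TN replicate 1, 5 of the 10 genes had such a p, beside 3.51% of all genes. Every HS cow then lay above every remaining TN and PF cow for 4 of the 10, beside 2.41%. This contrast shares its HS cows with the 2 comparisons above and is not a separate sample of heat.

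The co-chaperones were also set against their chaperone. *HSP90AA1*, the stress-inducible cytosolic HSP90, had 614, 456 and 827 CPM in HS, 412, 450 and 279 CPM in PF and 149, 315 and 262 CPM in TN cows. *HSP90AB1*, the constitutive form, had 417, 404 and 639 CPM in HS, 414, 445 and 338 CPM in PF and 158, 367 and 270 CPM in TN cows. The log2 fold change of HS against TN was 1.37 (SE 0.39) for *HSP90AA1* and 0.87 (SE 0.39) for *HSP90AB1*, with edgeR FDR of 0.392 and 0.522. Every HS cow lay above every TN cow for both, and above every PF cow for *HSP90AA1* only.

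For each cow the count of a gene was divided by the summed counts of *HSP90AA1* and *HSP90AB1*, a ratio that needs no library size. *FKBP4* had 252, 340.0 and 302 counts per 1000 HSP90 counts in the HS cows and 277, 239 and 284 in the TN cows, so that its ratio overlapped between these groups (log2 difference 0.15, exact permutation test, p = 0.4). *AHSA1* had 61.1, 85.0 and 58.8 counts per 1000 in HS and 91.9, 63.2 and 74.0 in TN cows (log2 difference -0.16, exact permutation test, p = 0.5). For *PTGES3*, the p23 protein, the values were 292, 347 and 265 in HS, 399, 393 and 370 in PF and 680, 398 and 457 in TN cows, below both other groups in every HS cow. Its log2 difference was -0.74 from TN and -0.37 from PF (exact two-sided permutation test, p = 0.1 for each, the smallest that 3 cows against 3 allow). *CDC37* had 47.8, 48.2 and 46.5 in HS and 92.4, 63.2 and 60.5 in TN cows (log2 difference -0.57, exact permutation test, p = 0.1).

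Between HS and TN cows the mean ratio was lower in HS for 9 of 10 genes, with *FKBP4* as the exception, and 3 (*HSF1*, *PTGES3* and *CDC37*) were lower in every HS cow than in every TN cow. Of all genes tested, 96.8% had a lower mean ratio and 61.8% were lower in every HS cow. The count of 9 of 10 is near the first share, and that of 3 of 10 is below the second. A lower ratio in every HS cow is thus not particular to these 3 genes. Between HS and PF cows *PTGES3* and *ST13* were lower in every HS cow, beside 21.7% of all genes, and between PF and TN cows *STIP1* and *CHORDC1* were lower in every PF cow, beside 19.7%. Both counts, 2 of 10, are near the background. Without TN replicate 1 the mean ratio was again lower in HS than in TN cows for 9 of 10, but the log2 differences were smaller for several genes. They were -0.298 for *HSF1*, -0.700 for *HSF2*, -0.023 for *AHSA1*, -0.155 for *STIP1*, -0.381 for *CDC37*, -0.426 for *CHORDC1* and -0.511 for *PTGES3*. With *HSP90AA1* alone as the denominator the ratio was lower for 10 of 10, and with *HSP90AB1* alone for 7, where *AHSA1* stood at 0.089. The smallest exact p that 3 cows against 3 allow is 0.1, so no Benjamini-Hochberg value over the 30 ratios could fall under 0.1. The smallest adjusted value was 0.429, and the adjustment cannot decide on any of these ratios.

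**Figure D4:**
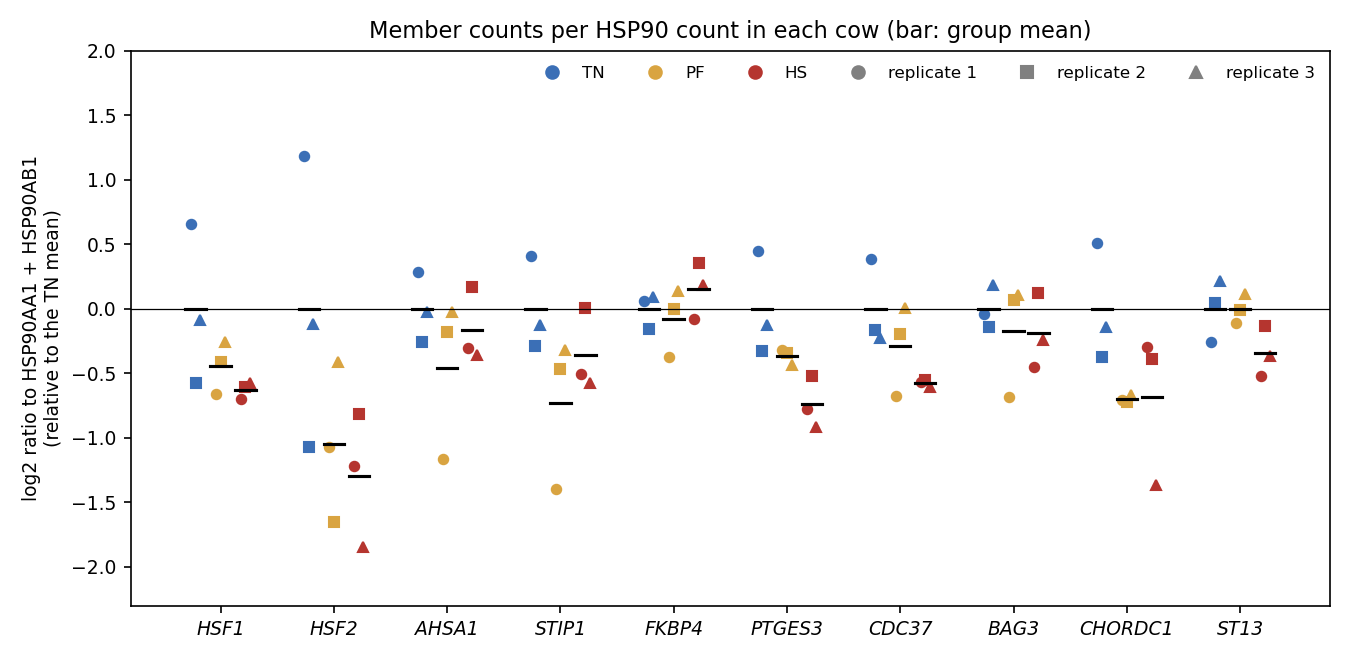
Log2 ratio of each gene's count to the summed counts of *HSP90AA1* and *HSP90AB1* (vertical axis, relative to the TN mean of the gene) in each cow. Colours give the group, shapes the replicate and black bars the group means; TN replicate 1 is the highest point for most genes, and the *PTGES3* points of the HS cows lie below those of both other groups. Of all genes tested, 61.8% had a lower ratio in every HS cow than in every TN cow.

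The genes around HSP90 and HSF1 were described as lists. The other HSF1 target genes, such as small heat shock proteins and chaperonins, had a median log2 fold change of 1.04 between HS and TN cows, with 9 of 15 higher at an unadjusted p under 0.05 and 1 DEG, *HSPH1*. Among all genes tested, 4.13% were higher and 5.23% lower at that p. The HSP90 chaperones had a median of 0.98 with 3 of 4 higher at that p, and the HSP70 machinery had 0.35 with 7 of 21, the same DEG among them. For 25 other HSP90 co-chaperones the median was 0.25 with 2 higher, *FKBP5* and *NUDC*. For 26 HSP90 client receptors and kinases it was 0.04 with 1 higher, *CDK4*, and for 12 genes of the HSF family and its regulators it was -0.15 with 0 higher and 1 lower, *FBXW7*. The counts of 2 of 25, 1 of 26 and 1 of 12 are near the shares of all genes. The medians of the 10 genes and of the list of HSF1 targets were farther from the median of all genes than those of the remaining co-chaperones, regulators and clients. The 10 genes and the lists were chosen with earlier results of these data known, so this order describes the choice as well as the genes. The lists share genes, with *HSPA1A*, *HSPH1* and *DNAJB1* standing both in the HSP70 machinery and among the HSF1 targets. *HSP90AA1*, of the HSP90 chaperones, and *CACYBP*, of the other co-chaperones, also stand among the HSF1 targets.

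*HSPH1*, a nucleotide exchange factor of HSP70, differed by 1.56 (SE 0.23; edgeR, FDR = 0.0879) between HS and TN cows on the log2 scale. *DNAJB1*, the HSP40 that returns HSF1 to its inactive state together with HSP70, differed by 1.47 (SE 0.24; edgeR, FDR = 0.114). *FKBP5*, the FKBP51 protein that opposes FKBP4 on the glucocorticoid receptor, had 55.7, 23.7 and 26.6 CPM in HS, 8.41, 12.9 and 6.37 CPM in PF and 7.79, 21.2 and 12.3 CPM in TN cows, and every HS cow lay above the other 6. Its log2 fold change was 1.94 (SE 0.38; edgeR, FDR = 0.183) against PF and 1.35 (SE 0.42; edgeR, FDR = 0.417) against TN. Among the regulators, *FBXW7*, a ubiquitin ligase subunit for HSF1, differed by -0.70 (SE 0.27; edgeR, FDR = 0.487) between HS and TN cows.

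Between HS and PF cows the medians were 0.40 for the HSF1 targets (5 of 15 higher at an unadjusted p under 0.05), 0.45 for the HSP90 chaperones (1 of 4) and 0.35 for the HSP70 machinery (7 of 21). They were 0.079 for the other co-chaperones, -0.061 for the HSF regulators and -0.00022 for the clients, with 1 of 25, 1 of 12 and 0 of 26 genes higher at that p, counts near the 3.07% of all genes. The 1 regulator was *XPO1*, an exportin, with a log2 fold change of 0.89 (SE 0.30; edgeR, FDR = 0.679). Against the mean of TN and PF, 3 genes of the HSP70 machinery (*HSPH1*, *DNAJB1* and *HSPA6*) and 3 HSF1 targets (*HSPH1*, *DNAJB1* and *CRYAB*) were DEGs, beside 0.159% of all genes. In this contrast the heat shock factors themselves had log2 fold changes of 0.47 (*HSF1*) and 0.03 (*HSF2*), and 0 of the other HSF family members and regulators was a DEG.

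**Figure D5:**
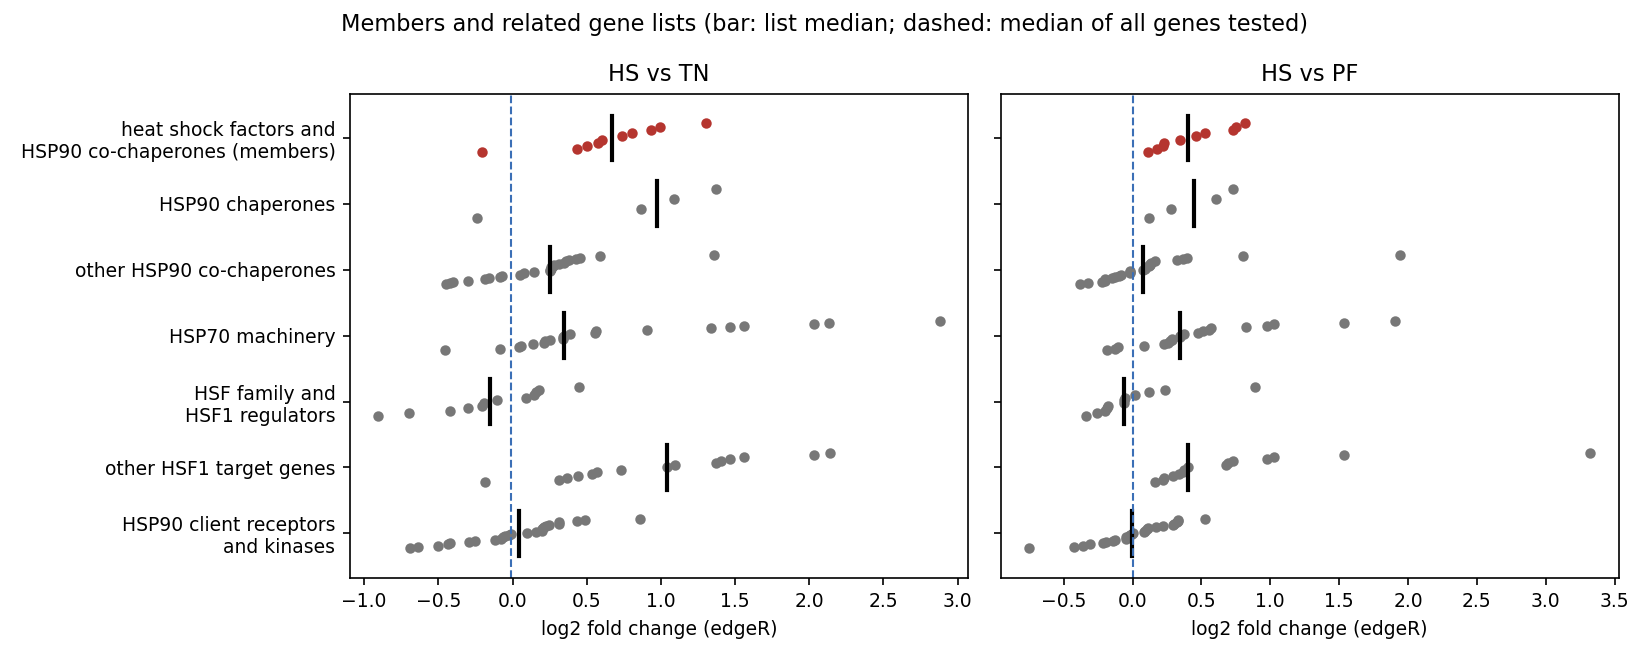
Log2 fold changes from edgeR (horizontal axes) of the 10 genes (red) and of 6 related lists (grey), for HS against TN and HS against PF. Each point is 1 gene, the black bar is the median of its list (0.67 and 0.40 for the 10 genes), and the dashed line is the median of all genes tested.

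The pattern over cows was compared between genes by the root mean square difference of log2 CPM, after each gene was centred on its mean over the 9 libraries, among 15073 genes. The gene nearest to *AHSA1* was another of the 10, *STIP1*, at 0.126, where *AHSA1* itself varied by 0.54 around its mean. *BAAT*, *EML2*, *DYNLT1* and *C15H11orf49* followed at 0.164 to 0.174, and *BAG3* stood at rank 19. The genes nearest to *BAG3* were *TOMM6*, *BANF1*, *ATP6V1F*, *PRADC1* and *EIF4EBP1* at 0.122 to 0.155, with *FKBP4* at rank 16 and *AHSA1* at rank 45. The genes nearest to *HSF1* were *ABCF3*, *TRAPPC9*, *HPD*, *LOC618664* and *LOC100847946* at 0.128 to 0.136, with *CDC37* at rank 64 and *PTGES3* at rank 86. *CHORDC1*, *STIP1*, *AHSA1*, *BAG3*, *FKBP4* and *ST13* lay much farther from *HSF1*, at ranks 2068 to 5159. *FKBP4*, *CDC37*, *HSF1*, *ST13*, *PTGES3* and *CHORDC1* stood at ranks 77 to 1352 from *AHSA1*. *ST13*, *CDC37*, *STIP1*, *HSF1*, *PTGES3* and *CHORDC1* stood at ranks 73 to 3016 from *BAG3*. *HSF2* was the farthest of the 10 from all 3, at rank 8075 from *HSF1*, 9581 from *AHSA1* and 10712 from *BAG3*. These distances describe the same 9 libraries, including the TN and HS cows that stood at the ends of the range.

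By the gene positions that RefSeq gives for the newer assembly ARS-UCD2.0, which the read counting did not use, *HSF1* overlaps *DGAT1* and lies beside *BOP1*, and *STIP1* overlaps *LOC132344206*. The strand setting of the counting is not given in the sources used here, so reads from overlapping genes could not be told apart and the counts of these genes are uncertain to that extent.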

How the data were processed

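RNA-seq of polyadenylated liver RNA from 9 cows (3 TN, 3 PF and 3 HS) was analysed from the raw read counts per gene that the authors deposited, with no normalization. Per the labels and the methods of the study, reads were cleaned with fastp 0.23.2, aligned to ARS-UCD1.2 with STAR 2.7.9a and counted with featureCounts 2.0.3. All 9 columns were matched to cows by their labels, and 0 were left out. Replicates of a group differed by a chi-square of 55.5 to 222 per degree of freedom, so no library was counted as a duplicate. The symbols of 24366 listed genes, the 10 described here included, were found in RefSeq (ARS-UCD2.0), which served for gene names and neighbours only.

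Pairwise comparisons used the 6 libraries of both groups in edgeR 4.0.16 (R 4.3.3), with TMM, filterByExpr and the quasi-likelihood F test without covariates. The contrast of HS with the mean of TN and PF used all 9 libraries. P-values were adjusted by Benjamini-Hochberg over all genes tested, and genes were called DEGs at FDR below 0.1 with more than 1.5-fold change. The edgeR p-values rest on the spread between cows, 3 per group, with the estimate for each gene moderated by those of the other genes. Ratios to HSP90 had 0.5 added to both counts on the log2 scale and were compared by exact two-sided permutation tests. The code was tested on simulated data. A level below 3 counts corresponds to 0.111 to 0.202 CPM, which covers counting error only.

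The alternatives were DESeq2 1.42.0, RLE size factors, mitochondrial genes left out, no filter, at least 10 counts in every library, a joint fit of all 9 libraries, a block for the replicate number, a stricter FDR of 0.05, *HSP90AA1* or *HSP90AB1* alone as the denominator, and each cow left out. The 10 genes and the lists were chosen with earlier results of these data known. Named are all 10 genes and, from each list, DEGs and up to 3 further genes with the smallest p whose groups do not overlap, some of which are given only as counts here. For likeness to *HSF1*, *AHSA1* and *BAG3* the 5 nearest genes are named. *FBXW7*, *NUDC*, *CDK4* and *XPO1* were also named because they were the single genes or pairs behind a count. Promoter sequences and heat shock elements were not analysed here.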

Additional observations from a re-analysis of the deposited data

How the results depend on the processing

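Of the 540 results on single genes, 519 kept their direction and their side of the threshold. Of 410 further counts and ratios, 352 stayed within a set margin of the main value. The margin was 1.5-fold for a count and the pooled SD of both groups for a ratio. Within it a ratio could shrink or change sign. Between HS and TN cows, *AHSA1* was at -0.165 in the main setting and at 0.089 with *HSP90AB1* alone, inside the margin. DESeq2 called 2 of the 10 genes between HS and TN cows and 1 between HS and the mean of TN and PF, where edgeR called 0. The cause was not tested. The number of DEGs among all genes moved most. Between HS and TN cows it was 270 with DESeq2, 124 without a filter, 4 with all 9 libraries in 1 fit and 0 at an FDR under 0.05 (edgeR, with 1365 genes at an unadjusted p under 0.05). Between HS and PF cows it was 122 with DESeq2, 98 without a filter, 8 with RLE size factors and 8 without mitochondrial genes. Between PF and TN cows it was 91 with DESeq2, 136 without a filter and 1 with at least 10 counts in every library. Against the mean of TN and PF it was 154 with DESeq2, 121 without a filter and 5 at an FDR under 0.05. Apart from the stricter FDR, which calls fewer genes by construction, the causes were not tested.

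The replicate numbers are not stated to pair the cows. The deviations of cows with the same number correlated at -0.218 to 0.241 (9 pairs) and those of other cows at -0.311 to 0.303 (18 pairs). With 3 cows per group, these correlations cannot decide whether cows were paired. With the replicate number as a block, edgeR called 33 genes between HS and TN, 6 between HS and PF, 1 between PF and TN and 11 against the mean of TN and PF, and 0 of the 10 genes in each. The genes of the 10 with an unadjusted p under 0.05 under the block were 5 between HS and TN (5.37% of all genes, higher), 2 between HS and PF (2.8%), 0 between PF and TN (3.16%) and 5 against the mean of TN and PF (3.7%).

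With each cow left out in turn, the DEGs among all genes were 0 to 39 between HS and TN, 5 to 10 between HS and PF, 0 to 14 between PF and TN and 0 to 21 against the mean of TN and PF. In edgeR the 0 calls between HS and TN and against the mean of TN and PF came without HS replicate 2 (1131 and 780 genes at an unadjusted p under 0.05), and the 39 and the 14 came without TN replicate 2. Of the 10 genes, 4 to 6 had an unadjusted p under 0.05 and a higher mean in HS than in TN cows. The share of all genes in these fits was 2.53% to 6.04%. Against PF cows it was 1 to 5 of the 10, beside 2.32% to 4.54% of all genes. The log2 fold change of *HSF2* ran from -0.43 to 0.13 between HS and TN and from -0.087 to 0.19 against the mean of TN and PF. Between HS and PF, *PTGES3* ran from -0.058 to 0.24 and *ST13* from -0.042 to 0.30. Between PF and TN, *AHSA1* ran from -0.0014 to 0.52, *STIP1* from -0.26 to 0.24 and *CHORDC1* from -0.11 to 0.12. *STIP1*, at -0.0021 between PF and TN, was at 0.012 with DESeq2, 0.0090 with RLE size factors, 0.0086 without a filter and 0.00075 with all 9 libraries in 1 fit.

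The ratios to HSP90 moved with the denominator. With *HSP90AA1* alone the log2 difference between HS and TN was -0.076 for *FKBP4* and -0.568 for *ST13*, and between HS and PF it was -0.401 for *HSF1*, -0.588 for *PTGES3* and -0.555 for *ST13*. With *HSP90AB1* alone it was 0.407 for *FKBP4*, 0.089 for *AHSA1*, -0.321 for *CDC37*, 0.063 for *BAG3* and -0.085 for *ST13* between HS and TN, and 0.055 for *HSF1*, -0.131 for *PTGES3* and -0.098 for *ST13* between HS and PF.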
